A study of Mus musculus with 5 samples.

Results

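The Ly49 receptors, encoded by the Klra genes, were followed gene by gene in the immune cells of mouse tumors, in 7 members: Klra1, Klra4, Klra5, Klra6, Klra7, Klra8 and Klra9. These 7 symbols were taken from the 11 Klra genes among the 28692 genes of the count matrices, and all 7 had counts in NK cells of every library. The tumors were B16-F10, a mouse melanoma line, grown under the skin of mice from 500000 implanted cells and resected on day 11. Live CD45-positive cells, that is leukocytes, were sorted and sequenced as single cells by a 5′ droplet method, and the treatments asked what an anti-PD1 antibody joined to an IL15 mutein does beside anti-PD1 and an IL15 superagonist, given alone or together. The 5 libraries, 1 per treatment, came from mice given the anti-PD1-IL15 protein fusion (fusion), the IL15 superagonist with anti-PD1 (combination), the IL15 superagonist alone, anti-PD1 alone, or PBS as the vehicle. The labels describe the mice only as tumor-bearing, and the sources used here state neither the strain, nor the doses, nor how many mice a library pools. Since each treatment is 1 library, nothing was replicated: a treatment and its library cannot be told apart, no p-value is given, and every interval covers counting error only.

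Ly49 receptors are lectin-like proteins of the NK cell surface in mice that bind MHC class I molecules. Inhibitory members carry a tyrosine-based motif in the cytoplasmic tail that recruits phosphatases and restrains the cell when it meets self MHC, while activating members lack the motif and signal through the adaptor DAP12, encoded by Tyrobp. Each NK cell carries its own subset of receptors, so that a tumor holds many combinations, and some T cells, chiefly memory-like CD8 T cells and NKT cells, carry Ly49 receptors too. Interleukin 15 is the main growth and survival cytokine of NK cells and of memory CD8 T cells.

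The sequences that separate the inhibitory from the activating members are the codons of that tail motif. All 7 genes lie on the minus strand of chromosome 6 (mm10). The runs of 30 bases below are coding strand, 5′ to 3′, from codon 4 to codon 13 of the annotated coding sequence, with codon 8, the place of the motif's tyrosine, in capitals.
Klra4 (Ly49D, activating), exon 2 of 7, chr6:130065264-130065293: caggaagacactTTCtcagctgtgagattc
Klra8 (Ly49H, activating, which binds a protein of mouse cytomegalovirus), exon 2 of 8, chr6:130128122-130128151: caggaggtcactTTCccaactatgagattc
Klra1 (Ly49A, inhibitory), exon 4 of 9, chr6:130380624-130380653: caggaggtcactTATtcaatggtgagattt
Klra5 (Ly49E, inhibitory, the main Ly49 of fetal NK cells), exon 3 of 9, chr6:129911423-129911452: ccagaggtcactTACtcaactgtgagactt
Klra6 (Ly49F, inhibitory), exon 2 of 8, chr6:130025181-130025210: ccggaggtcactTACtcaactgtgagactt
Klra7 (Ly49G, inhibitory), exon 1 of 8, chr6:130231579-130231608: caggaggtcactTACtcaactgtgagattt
Klra9 (Ly49I, inhibitory), exon 2 of 7, chr6:130191263-130191292: ccggaggtcactTACtcaactgtgagactt
Klra1, Klra5, Klra6, Klra7 and Klra9 have a tyrosine codon (TAC or TAT) there, and Klra4 and Klra8 have the phenylalanine codon TTC. The printed runs of Klra6 and Klra9 are identical. Over whole coding sequences the 21 pairs of members were 77.9% (Klra7 and Klra8) to 91.9% identical, Klra8 with Klra9 and Klra5 with Klra6 being the closest. Of all 90-base windows in the annotated transcripts, none of Klra1, Klra4, Klra5, Klra6 or Klra7 was shared with another Klra gene, against 1.56% for Klra8, all with Klra9, and 2.61% for Klra9, with Klra3, Klra8 and Klra10. In the first 400 bases of each transcript, the end that the 5′ method reads, no member shared a window of that length. The sources used here do not say how reads that fit several Klra genes were treated.

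Libraries held 6015 (PBS) to 8747 (fusion) cell barcodes and 32832856 (PBS) to 81565425 (fusion) unique molecular identifiers (UMIs, each standing for 1 captured RNA molecule). After removal of cells with over 10% mitochondrial UMIs and of cells with marker genes of 2 lineages, 5742 to 8445 cells per library and 35728 in all remained, and no cell had under 200 genes. Of 36688 barcodes, 774 occurred in more than 1 library, 61 to 104 for a pair. NK cells were gated by a UMI of Ncr1, Klrb1c or Klre1 and no Cd3d, Cd3e or Trac, which gave 206 cells in fusion, 807 in combination, 996 in the IL15 superagonist, 564 in anti-PD1 and 380 in PBS. CD8 T cells, with at least 2 of Cd3d, Cd3e, Cd3g and Trac, a CD8 chain and no Cd4 or Foxp3, numbered 6523, 3224, 1991, 1101 and 940 in the same order of libraries. Double-negative T cells, with the same T cell genes but no UMI of Cd4, Cd8a, Cd8b1 or Foxp3, numbered 514, 928, 946, 336 and 333. No member was used to gate a cell. Of the NK genes checked, Tyrobp was found in 98.9% to 100% of NK-gated cells, Fcer1g in 93.4% to 100% and Nkg7 in 89.5% to 99.4%. Shares for the other checked genes are not given here, and these alone do not settle the NK label. In clusters of cells classed as NK, 63.5% to 72.7% of cells were NK-gated. Lyz2, a myeloid gene, lay at 13.0 to 43.9 CPM in NK-gated cells. CPM is UMIs per 1000000 UMIs of the class, the unit of all levels here. It does not scale with transcript length because only 5′ ends are counted. PBS was the shallowest library in this class, with a median of 2525 UMIs per NK-gated cell against 3878.5 in fusion.

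Of these 3 classes, NK-gated cells had the highest summed level of the family in every library and CD8 T-gated cells the lowest. The summed Ly49 level of NK-gated cells was 1100.0 CPM in fusion, 2101 in combination, 1993 in the IL15 superagonist, 1274 in anti-PD1 and 1109.8 in PBS. Double-negative T-gated cells had 939 CPM in fusion, 975 in combination, 919.9 in the IL15 superagonist, 574 in anti-PD1 and 374 in PBS. CD8 T-gated cells had 41.8 CPM in fusion, 69.7 in combination, 94.0 in the IL15 superagonist, 32.3 in anti-PD1 and 18.5 in PBS. Within each library NK-gated cells were thus 21.2-fold (IL15 superagonist) to 59.9-fold (PBS) above CD8 T-gated cells, and 1.17-fold (fusion) to 2.97-fold (PBS) above double-negative T-gated cells. Their order did not change between libraries, and only in fusion did NK-gated and double-negative T-gated cells lie within 1.5-fold of each other. Myeloid cells, which should lack the family, had 12.9 CPM in fusion, 22.9 in combination, 25.7 in the IL15 superagonist, 8.64 in anti-PD1 and 9.97 in PBS. What these myeloid UMIs come from was not tested. CD8 T-gated cells lay 1.86-fold (1.45 to 2.37, PBS) to 3.74-fold (anti-PD1) above myeloid cells of their own library in the summed level. Single members could lie below them, Klra4 in PBS at 0.159-fold (0.0317 to 0.490, on 3 UMIs in CD8 T-gated cells) and Klra8 in fusion at 0.354-fold (0.169 to 0.830) of the myeloid level.

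**Figure D1:**
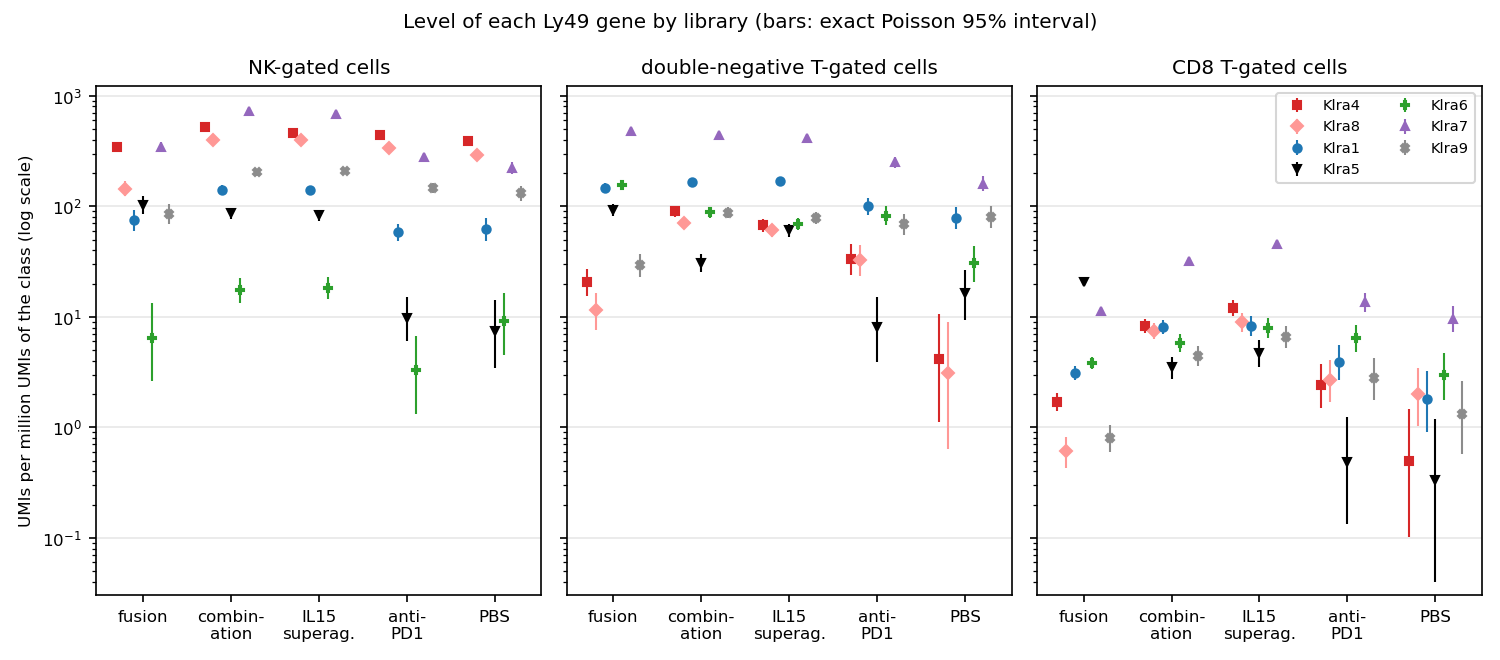
Level of each Ly49 gene (CPM, log scale) in NK-gated, double-negative T-gated and CD8 T-gated cells of the 5 libraries; points are single libraries and bars are exact Poisson 95% intervals. Klra5 lies at 9.85 CPM in anti-PD1 and 7.46 CPM in PBS in NK-gated cells, where only Klra6 is at a like level, and is the highest of the 7 in CD8 T-gated cells of fusion (20.5 CPM).

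In NK-gated cells the inhibitory members made up most of the difference from PBS in combination and in the IL15 superagonist, while in fusion they were higher than in PBS and the activating pair was lower. Summed over Klra1, Klra5, Klra6, Klra7 and Klra9, their level was 612 CPM in fusion, 1175 in combination, 1142 in the IL15 superagonist, 497 in anti-PD1 and 431 in PBS, that is 1.42-fold (1.26 to 1.59), 2.73-fold (2.49 to 2.99), 2.65-fold (2.42 to 2.91) and 1.15-fold (1.04 to 1.28) of PBS. The activating pair, Klra4 with Klra8, stood at 488 CPM in fusion, 926 in combination, 851 in the IL15 superagonist, 777 in anti-PD1 and 679 in PBS. The pair was 1.39-fold lower (1.24 to 1.55) in fusion than in PBS, and 1.36-fold higher (1.26 to 1.47) in combination, 1.25-fold higher (1.16 to 1.36) in the IL15 superagonist and 1.15-fold higher (1.05 to 1.25) in anti-PD1. Over all members the sum was 0.991-fold of PBS in fusion (0.916 to 1.07), 1.89-fold in combination (1.79 to 2.01), 1.80-fold in the IL15 superagonist (1.69 to 1.90) and 1.15-fold in anti-PD1 (1.08 to 1.23). The sum in fusion turned with the cells counted as NK: it was 0.825-fold of PBS (log2 ratio -0.28, -0.42 to -0.14) with a stricter gate, which needs 2 of the NK markers and no CD3 gene, and 1.08-fold (log2 ratio 0.12, 0.024 to 0.21) with clusters of cells in place of the gate. With the stricter gate anti-PD1 was 1.06-fold, with an interval that holds equal levels.

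Klra7 and Klra5 stood out among the inhibitory members in NK-gated cells. Klra7 lay at 342 CPM in fusion, 727 in combination, 690.5 in the IL15 superagonist, 278.5 in anti-PD1 and 221 in PBS. It was 1.55-fold (1.32 to 1.82), 3.29-fold (2.90 to 3.74), 3.12-fold (2.75 to 3.55) and 1.26-fold (1.09 to 1.46) higher than in PBS, and was found in 40.8%, 55.5%, 57.0%, 33.2% and, in PBS, 28.3% of cells thinned to 2000 UMIs. Klra5 lay at 103 CPM in fusion, 86.1 in combination, 82.8 in the IL15 superagonist, 9.85 in anti-PD1 and 7.46 in PBS. The libraries that received IL15 in any form were all high and the other 2 were low. The share of all tested genes that split the libraries in this way was not computed. Klra5 was 13.8-fold (6.996 to 30.9), 11.5-fold (5.999 to 25.5) and 11.1-fold (5.77 to 24.5) higher in fusion, combination and the IL15 superagonist than in PBS, and 1.32-fold in anti-PD1 with an interval that holds 1 (0.580 to 3.27). These folds rest on 9 UMIs in 4 cells of PBS, and 111 UMIs in 22 cells of fusion. In fusion 5 cells held 50% of these UMIs, and the highest count in a cell was 23. With cells thinned to 2000 UMIs before gating the fold of fusion over PBS was 5.65. Klra1 was higher in combination (141 CPM, 2.27-fold, 1.78 to 2.94) and in the IL15 superagonist (141 CPM, 2.26-fold, 1.77 to 2.92), against 74.9 CPM in fusion, 58.6 in anti-PD1 and 62.2 in PBS. Klra9 lay at 85.1 CPM in fusion, 203 in combination, 209 in the IL15 superagonist, 147 in anti-PD1 and 131 in PBS, and was 1.54-fold lower (1.18 to 2.01) in fusion than in PBS. Klra6 was rare in NK-gated cells, with 6.48 CPM in fusion, 17.5 in combination, 18.3 in the IL15 superagonist, 3.28 in anti-PD1 and 9.12 in PBS, and in fusion and anti-PD1 its count was 7 UMIs each.

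Of the 2 activating members in NK-gated cells, Klra4 varied least across the libraries of all 7 genes, and Klra8 was low in fusion. Klra4 lay at 344 CPM in fusion, 526 in combination, 457 in the IL15 superagonist, 442 in anti-PD1 and 387 in PBS, and no library differed from PBS by more than 1.36-fold. With the stricter gate Klra4 in the IL15 superagonist was 0.956-fold of PBS, so its direction there depends on the gate. Klra8 lay at 144 CPM in fusion, 400.01 in combination, 394 in the IL15 superagonist, 335 in anti-PD1 and 292 in PBS. In fusion Klra8 was 2.02-fold lower (1.67 to 2.46) than PBS and 2.77-fold lower (2.35 to 3.29) than combination.

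Counted as members past 2-fold among those with 20 or more UMIs over both libraries, NK-gated cells had 1 of 6 higher (Klra5) and 1 of 6 lower (Klra8) in fusion against PBS, where 8.86% and 14.9% of all tested genes were past 2-fold higher and lower. Combination against PBS had 3 of 7 higher (Klra1, Klra5, Klra7), beside 6.75% of all genes. The IL15 superagonist had 4 of 7 higher (the same and Klra6, at 2.01-fold), beside 7.52%, and anti-PD1 0 of 6, beside 3.64%. None was past 2-fold lower in combination, the IL15 superagonist or anti-PD1, beside 7.74%, 8.62% and 4.06% of all genes. Fusion against combination, that is a mutein joined to anti-PD1 against a superagonist given with it, had 4 of 7 lower (Klra6, Klra7, Klra8, Klra9), beside 6.08%, and 0 higher, beside 4.39%. The sum was 1.91-fold lower (1.80 to 2.03) in fusion than in combination, while Klra5 was at 1.19-fold (0.95 to 1.49), and at 0.730-fold with cells thinned before gating, so its direction is not settled. Klra6 rests on 7 UMIs in fusion, and with clusters in place of the gate it was 1.31-fold higher there than in combination. The median log2 ratio of the members was 0.05 in fusion, 0.94 in combination, 1.01 in the IL15 superagonist and 0.20 in anti-PD1 against PBS, beside -0.03, 0.00, 0.02 and -0.03 for all tested genes. The stricter gate left 2 members past 2-fold higher in the IL15 superagonist and none lower in fusion against PBS, and clusters left 2 lower in fusion against combination. The share of all genes past 2-fold was not computed under the stricter gate or clusters, so these counts cannot be set beside it. Comparisons with PBS share that library.

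**Figure D2:**
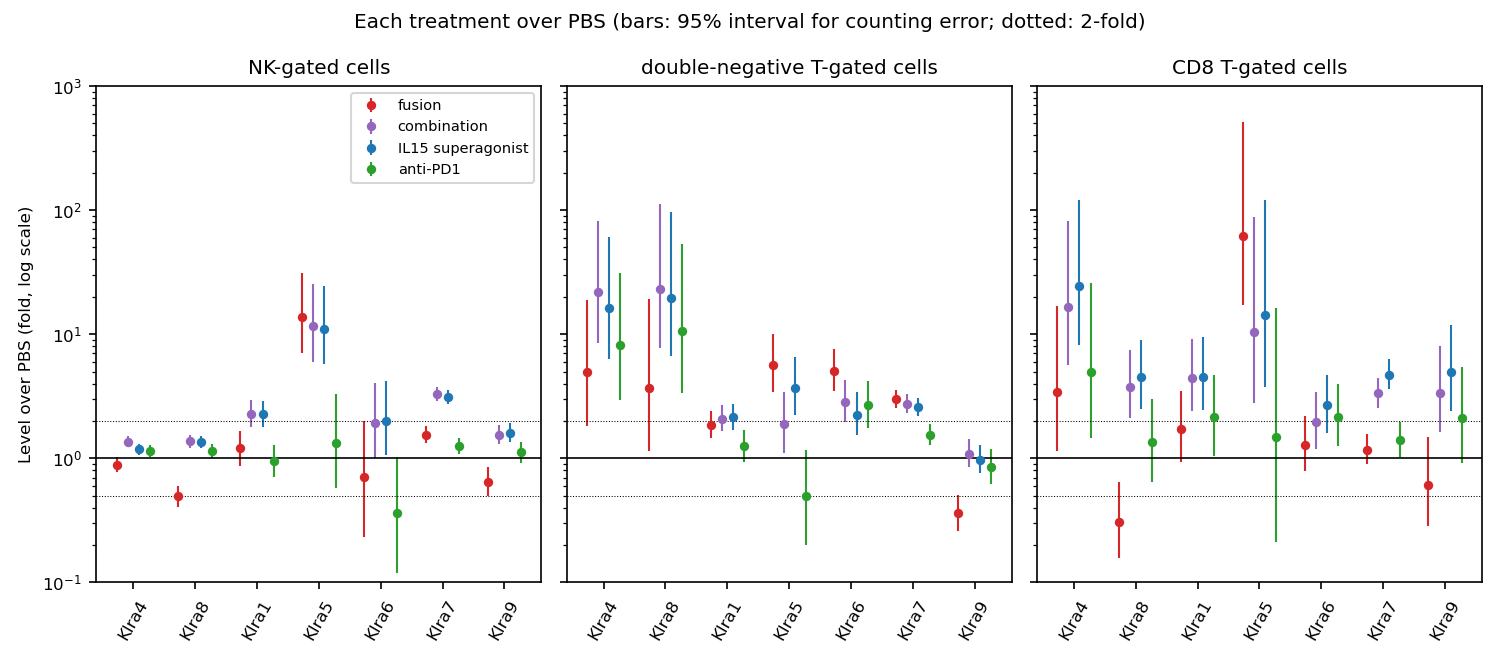
Fold of each Ly49 gene in each treatment over PBS (log scale; bars are 95% intervals for counting error, the solid line is equal level and the dotted lines are 2-fold) in NK-gated, double-negative T-gated and CD8 T-gated cells. In NK-gated cells Klra5 lies from 11.1-fold to 13.8-fold in the 3 libraries with IL15, while Klra4 stays between 0.889-fold and 1.36-fold in all 4 treatments.

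Among genes that work beside the receptors in NK-gated cells, Klrg1 was past 2-fold higher than in PBS in all 4 treatments, and Tcf7 was past 2-fold lower in the 3 libraries with IL15. Klra3 (Ly49C), the other Klra gene with 20 or more UMIs, lay at 54.6 CPM in fusion, 139 in combination, 112 in the IL15 superagonist, 78.3 in anti-PD1 and 39.0 in PBS, and was 1.40-fold, 3.58-fold, 2.87-fold and 2.01-fold higher than in PBS. Of 8 adaptor and signalling genes, 2 were past 2-fold lower in fusion against PBS (Inpp5d, an inhibitory lipid phosphatase, 2.04-fold, and the kinase Syk, 2.30-fold), beside 14.9% of all genes, 1 was past 2-fold higher in combination (the kinase Zap70, 2.02-fold), beside 6.75%, and 0 were past it in the IL15 superagonist or anti-PD1. Tyrobp, the adaptor of Klra4 and Klra8, lay at 3079 CPM in fusion, 4709 in combination, 4375 in the IL15 superagonist, 2969 in anti-PD1 and 2432 in PBS. None of the 3 ligand genes (H2-D1, H2-K1, B2m) was past 2-fold in any comparison. Of 13 other receptor genes of the NK gene complex, 1 of the 11 with enough UMIs was past 2-fold higher and 1 lower in fusion against PBS (8.86% and 14.9% of all genes). Combination had 3 of 13 higher (6.75%), the IL15 superagonist 3 of 13 (7.52%) and anti-PD1 1 of 11 (3.64%). Klrg1, an inhibitory receptor gene of mature NK cells, had 147 CPM in fusion, 253 in combination, 288 in the IL15 superagonist, 63.3 in anti-PD1 and 18.2 in PBS, 8.07-fold, 13.9-fold, 15.8-fold and 3.47-fold higher than PBS. Klrc1, which encodes NKG2A, was 1.81-fold, 2.15-fold and 2.25-fold higher in fusion, combination and the IL15 superagonist. Klrb1b was 3.94-fold lower in fusion. Of 9 transcription factor genes, 2 were past 2-fold lower in fusion (14.9% of all genes), 1 was lower (7.74%) and 1 higher (6.75%) in combination, 1 was lower in the IL15 superagonist (8.62%) and 0 were past it in anti-PD1. Tcf7, whose product TCF-1 is needed for Ly49A expression in mice, was the lower one in all 3 libraries with IL15, at 49.0 CPM in fusion, 38.7 in combination and 32.1 in the IL15 superagonist against 122 in anti-PD1 and 135 in PBS. Zeb2 was the other lower one in fusion (2.15-fold), and Tbx21, which encodes T-bet, was 2.07-fold higher in combination.

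The makeup of the family in NK-gated cells differed between libraries with and without IL15. In NK-gated cells Klra4 and Klra8 together held 44.4% of the family's UMIs in fusion (41.6 to 47.3, exact Clopper-Pearson 95% interval), 44.1% in combination (42.9 to 45.2), 42.7% in the IL15 superagonist (41.6 to 43.8), 61.0% in anti-PD1 (59.1 to 62.8) and 61.2% in PBS (58.5 to 63.8). Libraries with IL15 and those without did not overlap in these intervals, which cover counting error only. How often other genes separate the same libraries was not computed, so the split cannot be called particular to this family. Klra7 held 31.1% in fusion, 34.6% in combination, 34.6% in the IL15 superagonist, 21.9% in anti-PD1 and 19.9% in PBS. Double-negative T-gated cells had a different makeup from NK-gated cells in every library, with Klra7 at 42.9% (PBS) to 51.3% (fusion) and Klra4 and Klra8 together at 1.92% (PBS) to 16.5% (combination). Klra6, at most 0.920% of the family in NK-gated cells, held 7.55% (IL15 superagonist) to 16.6% (fusion) there. In double-negative T-gated cells the share of Klra4 and Klra8 did not split by IL15. It was 81 of 2379 family UMIs in fusion, 565 of 3419 in combination and 81 of 703 in anti-PD1. CD8 T-gated cells did not split so either, with 152 of 2762 in fusion, 335 of 1483 in combination and 15 of 112 in PBS.

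**Figure D3:**
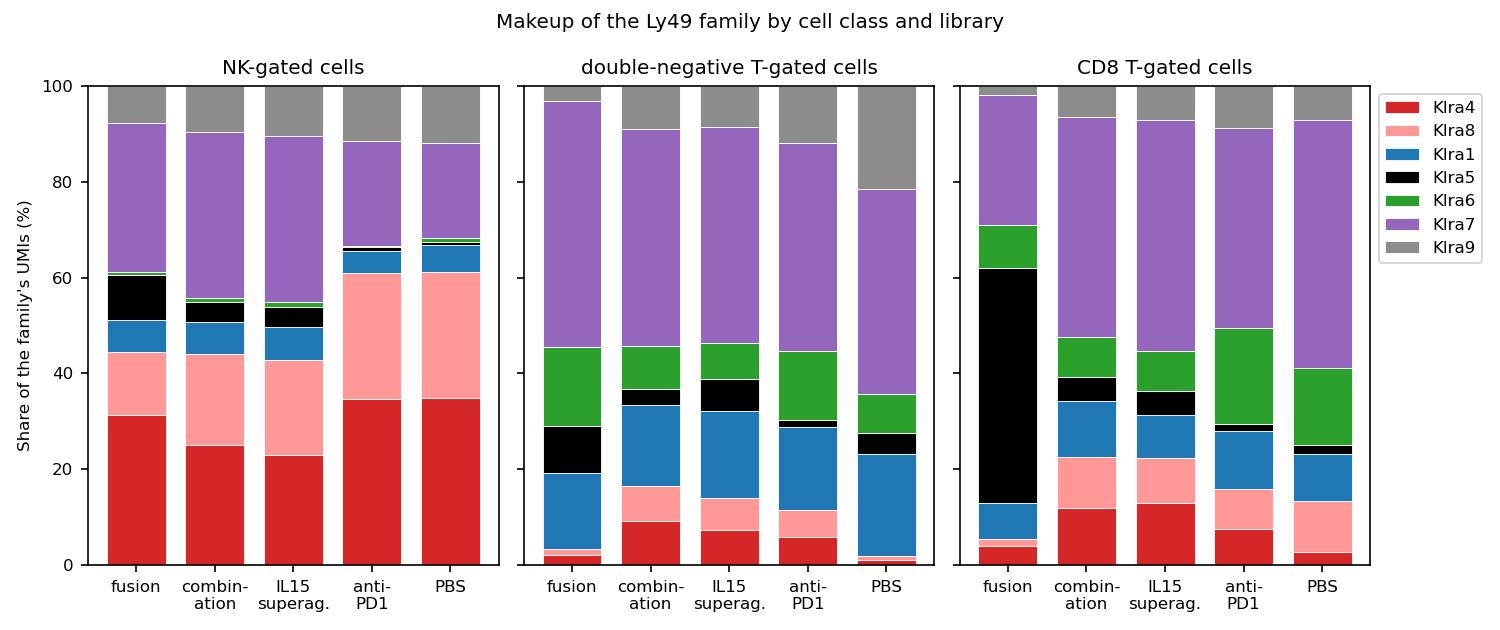
Share of each member in the family's UMIs (percent, stacked to 100) in NK-gated, double-negative T-gated and CD8 T-gated cells of the 5 libraries. The activating Klra4 and Klra8 (red and pink) hold 42.7% to 61.2% in NK-gated cells and 1.92% to 16.5% in double-negative T-gated cells, and Klra5 (black) holds 49.0% in CD8 T-gated cells of fusion.

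More members were found per NK-gated cell in the libraries of the IL15 superagonist and the combination. Each cell was thinned to 2000 UMIs, which kept 311 of 380 NK-gated cells in PBS, 994 of 996 in the IL15 superagonist and all in the others. The mean number of members detected was 1.29 in fusion, 1.77 in combination, 1.79 in the IL15 superagonist, 1.45 in anti-PD1 and 1.18 in PBS. Cells with 3 or more members made up 19.4% in fusion, 31.1% in combination, 30.3% in the IL15 superagonist, 18.6% in anti-PD1 and 14.8% in PBS. Cells with none made up 35.4% in fusion, 21.8% in combination, 20.8% in the IL15 superagonist, 24.8% in anti-PD1 and 37.0% in PBS. A cell without a UMI may still express a member, and myeloid cells thinned alike had a UMI of a member in 0.877% (PBS) to 2.69% (IL15 superagonist), so these are shares of detection at this depth. Klra4 and Klra8 were found in the same cell more often than the product of their shares gives in each library: 27 cells against 14.7 in fusion, 155 against 103 in combination, 187 against 117 in the IL15 superagonist, 110 against 88.1 in anti-PD1 and 47 against 29.9 in PBS. The excess was not particular to the activating pair: Klra4 met the inhibitory Klra7 in 43 cells against 25.3 in fusion, 198 against 159 in combination, 236 against 189.95 in the IL15 superagonist, 99 against 75.3 in anti-PD1 and 47 against 28.3 in PBS. Klra7 and Klra9 met about as often as that product, 15 against 12.6 in fusion, 102 against 101 in combination, 148 against 136 in the IL15 superagonist, 35 against 40.5 in anti-PD1 and 15 against 15.8 in PBS. Klra5 and Klra7 met in 1 NK-gated cell of fusion against 6.12 by the product, but in 41 against 38.9 in combination and 72 against 59.3 in the IL15 superagonist. NK-gated cells of fusion also had Cd8a at 10.2 CPM, in 4.37% of cells, against 2.91 CPM in combination and 2.49 in PBS, and its part in that result was not tested.

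**Figure D4:**
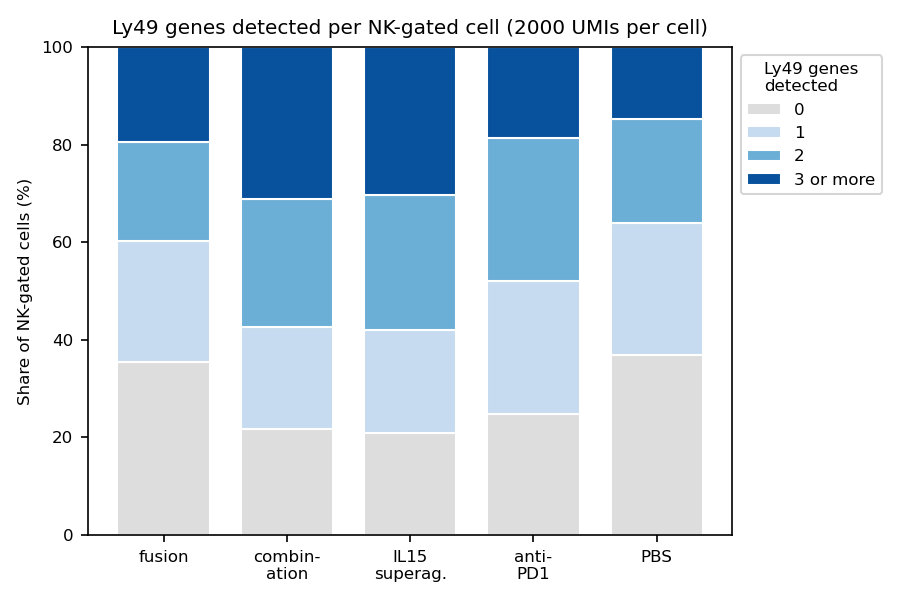
Share of NK-gated cells (percent, stacked to 100) in which 0, 1, 2, or 3 or more of the 7 Ly49 genes had a UMI after each cell was thinned to 2000 UMIs. Cells with 3 or more are 31.1% in combination and 30.3% in the IL15 superagonist, against 19.4% in fusion, 18.6% in anti-PD1 and 14.8% in PBS.

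Ly49-positive NK-gated cells (at least 1 UMI over the members) had higher levels of genes of mature NK cells than Ly49-negative ones in every library. Of 8 mature NK genes listed, 6 had 20 or more UMIs in every library. Of these, 5 were at least 1.5-fold higher in Ly49-positive cells of all 5 libraries (Cma1, Eomes, Gzma, Klrg1, Prf1), beside 0.678% of 4723 genes. Eomes, the transcription factor that sets NK cells apart from type 1 innate lymphoid cells, lay at 196 CPM in Ly49-positive against 43.9 in Ly49-negative cells in fusion, 216 against 54.4 in combination, 213 against 49.1 in the IL15 superagonist, 308 against 96.3 in anti-PD1 and 301 against 103 in PBS. Gzma, a serine protease of killer cells, was 2.52-fold, 5.04-fold, 2.88-fold, 2.58-fold and, in PBS, 3.43-fold higher in Ly49-positive cells. Zeb2, the other mature NK gene with enough UMIs, was higher in 3 libraries and lower in fusion (0.710-fold) and PBS (0.763-fold). Of 9 ILC1-like genes listed, only 4 had that many UMIs in every library. Of these, 2 were at least 1.5-fold lower in Ly49-positive cells of all 5 libraries (Il7r, Rora), beside 1.23% of genes. Il7r, the receptor of interleukin 7, lay at 8.65 against 36.2 CPM in fusion, 21.6 against 151 in combination, 10.6 against 130 in the IL15 superagonist, 7.34 against 94.3 in anti-PD1 and 25.6 against 89.3 in PBS. Rora, a transcription factor of innate lymphoid cells, was 1.73-fold lower in fusion (1.00 to 2.99) and 4.86-fold to 20.2-fold lower in the other 4 libraries. In fusion Ly49-positive cells had fewer UMIs each (median 3690.5) than Ly49-negative cells (4859), and in combination the medians were 3847 and 3833.5.

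**Figure D5:**
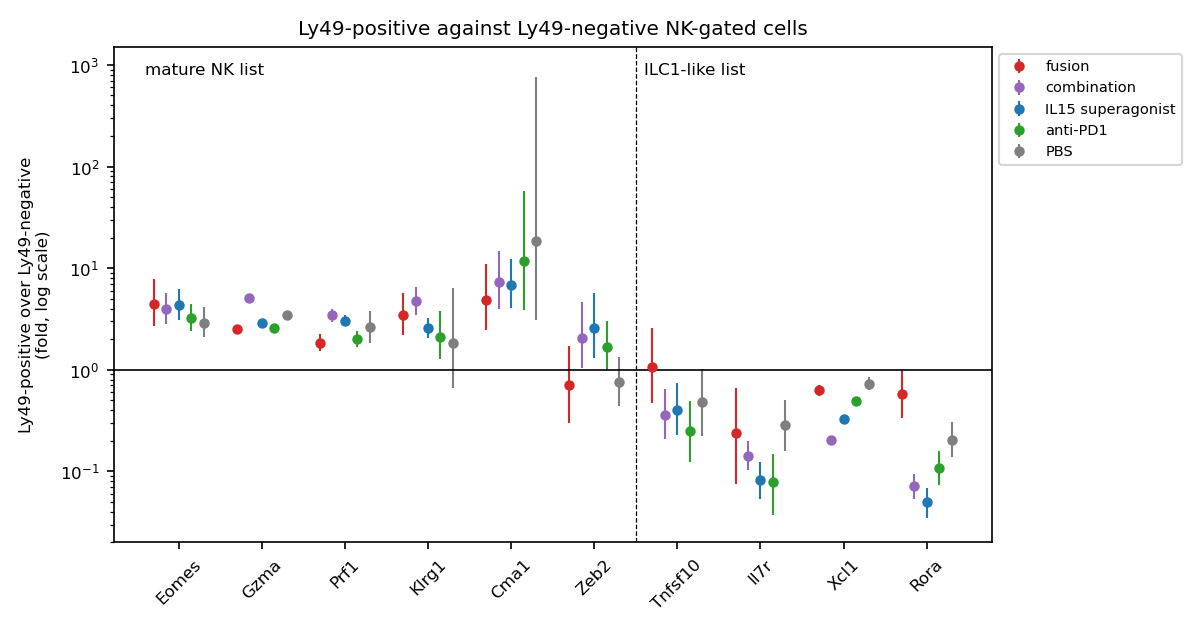
Fold of Ly49-positive over Ly49-negative NK-gated cells (log scale; bars are 95% intervals for counting error) for the mature NK genes and the ILC1-like genes with 20 or more UMIs in every library, each point 1 library. Eomes, Gzma, Prf1, Klrg1 and Cma1 lie above 1.5-fold in all 5 libraries, and Il7r and Rora below equal level.

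In double-negative T-gated cells the inhibitory members carried the family, and its summed level in each treatment was above PBS. The sum was 2.51-fold (2.25 to 2.81) of PBS in fusion, 2.61-fold (2.34 to 2.91) in combination, 2.46-fold (2.21 to 2.75) in the IL15 superagonist and 1.53-fold (1.35 to 1.75) in anti-PD1. When clusters of cells replaced the gate these folds were 1.71, 1.30, 1.14 and 1.25, and against anti-PD1 in place of PBS they were 1.64 in fusion, 1.70 in combination and 1.60 in the IL15 superagonist. Klra7 was the highest member, with 481 CPM in fusion, 442 in combination, 415 in the IL15 superagonist, 249 in anti-PD1 and 160.3 in PBS. Klra6 lay at 155 CPM in fusion, 88.1 in combination, 69.4 in the IL15 superagonist, 82.5 in anti-PD1 and 30.8 in PBS, 5.04-fold (3.48 to 7.57) higher in fusion than in PBS and 1.76-fold (1.52 to 2.05) higher than in combination. Klra5 lay at 93.1 CPM in fusion, 30.8 in combination, 60.7 in the IL15 superagonist, 8.17 in anti-PD1 and 16.4 in PBS, and fusion was 5.66-fold (3.42 to 10.1) above PBS and 3.02-fold (2.40 to 3.83) above combination. Klra9 went the other way in fusion, with 29.2 CPM against 87.6 in combination, 78.2 in the IL15 superagonist, 68.6 in anti-PD1 and 80.2 in PBS, 2.75-fold (1.97 to 3.83) lower than PBS. Klra1 lay at 148 CPM in fusion, 165 in combination, 169 in the IL15 superagonist, 99.6 in anti-PD1 and 79.1 in PBS. Members past 2-fold against PBS were 5 of 7 higher (Klra4, Klra5, Klra6, Klra7, Klra8) and 1 lower (Klra9) in fusion, beside 12.2% and 14.2% of all tested genes. They were 5 higher in combination (all but Klra5 and Klra9), beside 7.64%, 6 higher in the IL15 superagonist (all but Klra9), beside 8.45%, and 3 higher (Klra4, Klra6, Klra8) and 1 lower (Klra5) in anti-PD1, beside 3.11% and 4.8%. None was lower in combination or the IL15 superagonist, beside 7.49% and 8.01%. The Klra4 and Klra8 calls against PBS rest on 4 and 3 UMIs in PBS. Klra5 in anti-PD1 had 10 UMIs against 16 in PBS, with an interval that holds equal levels (0.201-fold to 1.16-fold). Against combination, fusion had 1 of 7 higher (Klra5), beside 4.69%, and 3 lower (Klra4, Klra8, Klra9), beside 4.88%. These counts depend on the class and on the library compared with. With clusters in place of the gate 2 members were higher and 1 lower in combination, 2 were higher in the IL15 superagonist and 2 in anti-PD1, while fusion again had 5 higher and 1 lower against PBS, and 1 higher and 1 lower against combination. With anti-PD1 in place of PBS, 1 was higher and 2 were lower in fusion, 3 were higher in combination and 2 in the IL15 superagonist. With cells thinned before gating, fusion had 3 higher against PBS and 0 higher against combination. For clusters, thinned cells and anti-PD1 in place of PBS, the share of all genes past 2-fold was not computed.

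Within each library the activating members held a larger share of the family in cells of this class with an NK marker UMI than in those without. In PBS the intervals of these shares overlapped. Across libraries, fusion had the highest Ncr1 level, yet less Klra4 and Klra8 than combination, the IL15 superagonist or anti-PD1. PBS had the least of both, and how the levels relate was not tested. Klra4 and Klra8 together had 32.0 CPM in fusion, 161 in combination, 128 in the IL15 superagonist, 66.1 in anti-PD1 and 7.19 in PBS, and Ncr1, the NK receptor NKp46, had 86.8 CPM in fusion, 67.3 in combination, 72.7 in the IL15 superagonist, 26.1 in anti-PD1 and 7.19 in PBS. Cells with a UMI of Ncr1 or Klrb1c (the NK1.1 gene) made up 58.2% of the class in fusion, 42.3% in combination, 43.9% in the IL15 superagonist, 26.2% in anti-PD1 and 14.1% in PBS. In the cells without either, a split made after the values were seen, Klra4 and Klra8 held 0.821% of the family's UMIs in fusion, 4.19% in combination, 2.95% in the IL15 superagonist, 3.86% in anti-PD1 and 0.738% in PBS. Their summed Ly49 level was still 634 CPM in fusion (585 to 686), 596 in combination (562 to 632), 532 in the IL15 superagonist (499 to 567), 387 in anti-PD1 (347 to 431) and 327 in PBS (289 to 368). In cells with such a UMI the activating share was 4.29% in fusion, 22.6% in combination, 18.8% in the IL15 superagonist, 18.6% in anti-PD1 and 5.38% in PBS. The PBS shares rest on 5 UMIs of the pair in cells with a marker UMI (1.77% to 12.1%) and 2 in cells without (0.0895% to 2.64%). In fusion the share in cells without a marker UMI rests on 5 UMIs (0.267% to 1.91%). Ly49-positive cells of the class had Pdcd1, the PD-1 gene, 2.51-fold to 3.60-fold lower and Lag3 1.51-fold to 4.62-fold lower than Ly49-negative cells over the 5 libraries, the 2 genes of 10 activation genes that were at least 1.5-fold lower in all of them (1.28% of all genes). Gzma, 1 of 3 mature NK genes with enough UMIs, was 1.68-fold (PBS) to 5.00-fold (combination) higher (0.183%).

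In CD8 T-gated cells the family was sparse, and Klra7 was its main gene in every library except fusion, where Klra5 was. Klra7 lay at 11.3 CPM in fusion, 32.1 in combination, 45.4 in the IL15 superagonist, 13.5 in anti-PD1 and 9.60 in PBS, that is 1.18-fold (0.900 to 1.57), 3.34-fold (2.56 to 4.45), 4.73-fold (3.60 to 6.32) and 1.41-fold (1.02 to 1.97) of PBS. Summed over the members, the level was 2.26-fold (1.87 to 2.75) of PBS in fusion, 3.76-fold (3.10 to 4.60) in combination, 5.07-fold (4.17 to 6.22) in the IL15 superagonist and 1.74-fold (1.39 to 2.20) in anti-PD1. With cells thinned to 2000 UMIs before gating the fold of anti-PD1 was 2.71. Members past 2-fold against PBS were 2 of 7 higher (Klra4, Klra5) and 1 lower (Klra8) in fusion, beside 8.08% and 15.5% of all tested genes. Klra8 in this class was at 1.02-fold (0.480 to 2.03) of the myeloid level in PBS and below it in fusion, and with cells thinned before gating its log2 ratio of fusion over PBS was 0.58 (-2.21 to 6.004), an interval too wide to give a direction. Members past 2-fold higher than in PBS were 6 of 7 in combination (all but Klra6), beside 5.52%, and 7 of 7 in the IL15 superagonist, beside 7.13%. In anti-PD1 they were 4 of 6 (Klra1, Klra4, Klra6, Klra9), beside 2.58%. None was past 2-fold lower in combination, the IL15 superagonist or anti-PD1, beside 7.18%, 8.28% and 2.95%. These calls rest on few PBS UMIs: 11 of Klra1, 3 of Klra4, 2 of Klra5, 12 of Klra8 and 8 of Klra9. Klra9 in anti-PD1 had an interval that holds equal levels (0.915-fold to 5.48-fold). Against anti-PD1 in place of PBS, the log2 ratio of Klra4 in fusion was -0.52 (-1.22 to 0.24). Against combination, fusion had Klra5 higher, beside 6.8%, and 5 of 7 members lower (all but Klra5 and Klra6), beside 7.73%. With clusters in place of the gate 3 of 7 members were higher in combination against PBS. With both CD8 chains and no NK marker UMI required, 1 member was past 2-fold lower in anti-PD1, 1 in the IL15 superagonist and 2 in fusion against PBS, and 3 were lower in fusion against combination. These counts under clusters and the narrower gate have no share of all genes beside them, since it was not computed there. A UMI of any member was found in 5.89% of thinned CD8 T-gated cells in fusion, 6.45% in combination, 8.20% in the IL15 superagonist, 4.81% in anti-PD1 and 2.54% in PBS. In myeloid cells thinned alike the shares were 1.30%, 1.96%, 2.69%, 0.901% and, in PBS, 0.877%.

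These CD8 T values depend on the gate. When both CD8 chains and no UMI of Ncr1 or Klrb1c were required, the sum was 23.5 CPM in 4862 cells of fusion, 14.3 in 2544 of combination, 16.4 in 1457 of the IL15 superagonist, 7.12 in 945 of anti-PD1 and 5.85 in 792 of PBS. Fusion was then 4.02-fold of PBS and 1.65-fold of combination, whereas the wider gate gave 0.600-fold (0.563 to 0.640) of combination, so the direction between fusion and combination turned round. Combination and the IL15 superagonist were 2.44-fold and 2.80-fold of PBS under the narrower gate. Klra4 and Klra8 together had 0.744 CPM in fusion, 1.96 in combination, 1.40 in the IL15 superagonist, 0.671 in anti-PD1 and 1.28 in PBS under it, against 2.30, 15.7, 21.1, 5.12 and, in PBS, 2.48 CPM under the wider gate. Klra8 was then 0.765-fold of PBS in combination and 0.491-fold in the IL15 superagonist, where the wider gate gave 3.76-fold and 4.51-fold. With anti-PD1 in place of PBS the sum under the wider gate was 1.29-fold in fusion, 2.16-fold in combination and 2.91-fold in the IL15 superagonist.

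Klra5 was high in CD8 T cells of fusion under both gates. It had 1354 UMIs in 385 of 6523 cells (5.90%) in fusion, 74 UMIs in 38 of 3224 cells in combination, 55 in 26 of 1991 in the IL15 superagonist, 4 in 2 of 1101 in anti-PD1 and 2 in 1 of 940 in PBS. As levels these are 20.5, 3.48, 4.69, 0.488 and, in PBS, 0.331 CPM, and fusion is 62.0-fold (17.1 to 512) above PBS and 5.89-fold (4.66 to 7.55) above combination. Under the narrower gate it had 797 UMIs in fusion (16.03 CPM) against 29 in combination (1.62 CPM) and 2 in PBS (0.366 CPM). In cells thinned to 2000 UMIs it was found in 2.84% in fusion, 0.527% in combination, 0.604% in the IL15 superagonist, 0.0908% in anti-PD1 and 0.111% in PBS. In all myeloid cells a Klra5 UMI was found in 3 cells of fusion (0.391%), 6 of combination (0.268%), 7 of the IL15 superagonist (0.399%), 0 of 4106 in anti-PD1, which allows a share of up to 0.0731%, and 1 in PBS (0.0339%). In fusion 204 of the 385 cells had 3 or more Klra5 UMIs, with up to 18 in a cell, and 86 cells held 50% of its UMIs. Without Klra5 the summed level of the other members in fusion was 1.17-fold of PBS.

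Among Klra5-positive CD8 T-gated cells, those of fusion had another member less often than those of combination and the IL15 superagonist. Within fusion they had one more often than Klra5-negative cells. In fusion 33 of 385 (8.57%) also had a UMI of another Ly49 gene, against 18 of 38 (47.4%) in combination and 16 of 26 (61.5%) in the IL15 superagonist, and in Klra5-negative cells the shares with another member were 5.21%, 8.60% and 10.2%. This view was chosen after the values of Klra5 were seen. Within fusion, Klra5-positive cells had Gzmf, a granzyme of activated killer cells, at 5336 against 2581 CPM in Klra5-negative cells, 2.07-fold higher (2.04 to 2.097), and Fcer1g, the Fc receptor gamma chain, at 1087 against 657 CPM, 1.66-fold higher (1.61 to 1.71). Gzmk was 3.15-fold lower (2.74 to 3.64), Gzmm 1.86-fold lower, Ccl5 1.69-fold lower (1.65 to 1.74) and Eomes 1.55-fold lower (1.21 to 2.01). Pdcd1 lay at 832 against 846 CPM and the proliferation gene Mki67 at 217 against 222 CPM. Of 20 memory and innate-like genes 1 was at least 1.5-fold higher and 4 were lower, and of 15 activation genes 1 was higher and 0 lower, beside 5.49% higher and 6.67% lower among 11842 genes. The positive cells were deeper, with a median of 10504 UMIs against 8832.5. Over all 7 members, Ikzf2, the Helios gene, was the 1 of 19 memory and innate-like genes at least 1.5-fold higher in Ly49-positive CD8 T-gated cells of all 5 libraries (0.382% of all genes), by 1.72-fold in fusion, 2.005-fold in combination, 2.04-fold in the IL15 superagonist, 2.16-fold in anti-PD1 and 1.66-fold in PBS. None of 14 activation genes was at least 1.5-fold lower in all 5 (0.0545% of all genes).

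Gamma-delta T-gated cells held the family as well. Their gate needed the T cell genes of the other T gates, a UMI of Trdc, and none of Trac, Cd4, Cd8b1 or Foxp3. It did not leave out cells with a UMI of Ncr1 or Klrb1c, and their part in these levels was not tested. Gamma-delta T-gated cells, 59 in fusion, 138 in combination, 148 in the IL15 superagonist, 63 in anti-PD1 and 33 in PBS, had 709 CPM in fusion (618 to 809), 813 in combination (739 to 893), 398 in the IL15 superagonist (345 to 458), 457 in anti-PD1 (369 to 558) and 375 in PBS (264 to 517). CD4 T-gated cells had 125 CPM in fusion (75.4 to 196), 90.1 in combination (68.2 to 117), 168 in the IL15 superagonist (127 to 219), 42.7 in anti-PD1 (24.8 to 68.3) and 31.8 in PBS (16.9 to 54.3). These levels come from 2 cells with a UMI in fusion, 12 in combination, 14 in the IL15 superagonist, 6 in anti-PD1 and 5 in PBS, and in anti-PD1 1.89% of thinned CD4 T-gated cells had a UMI, against 2.08% of B cells. In regulatory T cells the family had UMIs in 1 cell of fusion, 11 of combination, 8 of the IL15 superagonist, 5 of anti-PD1 and 4 of PBS. Cells outside every gate also carried it, at 725 CPM in fusion, 1027 in combination, 1101 in the IL15 superagonist, 263 in anti-PD1 and 119 in PBS. Ncr1 was found in 42.4%, 37.9%, 42.3%, 11.9% and, in PBS, 2.76% of these 132 to 652 cells, and Trac in 31.8%, 35.5%, 45.8%, 17.2% and, in PBS, 6.13%, so the gates leave out Ly49-bearing cells of which many have an NK or a T cell gene. Over 32 points of a class in a library with 50 or more cells, the genes whose log2(CPM + 10) was most like the summed family were Klrb1c (Pearson r 0.979, a gene that gates NK cells), Atp1b1 (0.967), Nrarp (0.951), Klrc2 (0.9502), Samd3 (0.946), Qrfp (0.943), Car2 (0.942) and Emid1 (0.939), among 11546 genes, and the points of a library share its depth. Of the members themselves Klra7 followed the sum most closely (0.981) and Klra6 least (0.711).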

How the data were processed

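Per the submitters' processing notes, the authors used Cell Ranger 2.1.1 and mm10, and the deposited matrices hold whole-number counts of UMIs per gene and cell barcode, not normalized. Each library was loaded with 16000 cells per the labels' protocols. All 5 libraries were read with Python 3.11.15 (numpy 2.4.6, pandas 2.3.3, scipy 1.17.1). Cells with under 200 genes, over 10% mitochondrial UMIs or markers of 2 lineages (2 genes and 3 UMIs each) were left out, and no doublet caller was run. The lineage rule removed 204 (PBS) to 393 (anti-PD1) cells a library. Cells were gated by marker UMIs, members were summed per class and library, and levels were scaled to 1000000 UMIs of the class (CPM).

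Levels carry exact Poisson 95% intervals, ratios exact conditional binomial ones and shares Clopper-Pearson ones. Without replicates there is no test, and a gene counts as past 2-fold where it has 20 or more UMIs over both libraries. The limit of a count of 0 is 3 counts. Library totals were 32832856 to 81565425 UMIs. Sequences and coordinates come from the GENCODE annotation and transcript sequences of GRCm38 (mm10), by exact symbol, with 7 of 7 members matched. The ratio and interval code was checked on simulated counts.

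The members and lists were chosen with earlier results of these data known. All 7 members are named in each class, other genes of the pathway lists where past 2-fold or where a sentence gives a list's values, and genes of the check lists where past 1.5-fold one way in all 5 libraries. Genes most like the family were the 8 with the highest Pearson r among genes with 200 or more UMIs. Tyrobp, Zeb2 in positive cells, Klrc1 in fusion and the single genes of Klra5-positive cells were named after their values were seen. Alternatives were a 5% mitochondrial limit, doublets kept, a strict gate, Leiden clusters (scanpy 1.11.5, leidenalg 0.10.2), thinning to 2000 UMIs before gating (the shares of thinned cells keep the gate of the whole cells), median ratio scaling and anti-PD1 in place of PBS. All alternatives for double-negative T cells, the sum without Klra5 and the splits by Ncr1 or Klrb1c and by Klra5 were added after seeing the data. Barcodes that occur in more than 1 library were kept.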

Additional observations from a re-analysis of the deposited data

Results flagged for a closer look

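In 3 cases a member was higher in double-negative T-gated cells and lower in NK-gated and CD8 T-gated cells under the same contrast. With 1 library per treatment the difference between classes was not tested.

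Klra8 had 11.4 CPM in fusion against 3.08 in PBS in double-negative T-gated cells, a log2 ratio of 1.89 (3.71-fold, 1.15 to 19.0) that rests on 29 UMIs in fusion and 3 in PBS. Against anti-PD1 in place of PBS it turned round, to -1.51 (-2.26 to -0.79). It had 144 CPM in fusion against 292 in PBS in NK-gated cells (log2 ratio -1.02) and 0.606 against 1.99 CPM in CD8 T-gated cells (-1.71).

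Klra6 had 155 CPM in fusion against 88.1 in combination in double-negative T-gated cells, a log2 ratio of 0.82 (1.76-fold, 1.52 to 2.05), and of 0.27 (-0.035 to 0.58) with cells thinned before gating. The log2 ratio was -1.43 in NK-gated cells, where fusion had 7 UMIs, and -0.62 in CD8 T-gated cells.

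Klra7 had 481 CPM in fusion against 442 in combination in double-negative T-gated cells, a log2 ratio of 0.12 (1.09-fold, 1.01 to 1.17). With cells thinned before gating it turned round, to -0.32 (-0.48 to -0.16). The log2 ratio was -1.09 in NK-gated cells and -1.51 in CD8 T-gated cells.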

How the results depend on the processing

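Values are log2 ratios of the summed family. Thinned cells were gated anew after thinning, so class membership changed too (double-negative T-gated cells of fusion were 990 in place of 514). Median ratio scaling and the 5% mitochondrial limit moved none of the 15 sums and none of 102 member ratios beyond their counting interval. In NK-gated cells against PBS, fusion gave -0.28 with the strict gate, 0.12 with Leiden clusters, -0.21 against anti-PD1 in place of PBS and -0.14 without Klra5. Combination gave 0.67, 0.74, 0.72 against anti-PD1 and 0.77 thinned, the IL15 superagonist 0.63, 0.67, 0.65 and 0.71, and anti-PD1 0.081 with the strict gate. Fusion over combination gave -0.63 with clusters and -0.83 thinned.

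In CD8 T-gated cells against PBS, fusion gave 2.01 with the strict gate, 1.63 thinned, 0.37 against anti-PD1 and 0.23 without Klra5. Combination gave 1.29 (strict), 1.11 (clusters) and 1.11 (against anti-PD1), the IL15 superagonist 1.48 (strict) and 1.54 (against anti-PD1), and anti-PD1 0.28 (strict) and 1.44 (thinned). Fusion over combination turned round to 0.72 with the strict gate and 0.13 with clusters, and was -0.26 thinned and -1.64 without Klra5.

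In double-negative T-gated cells against PBS, fusion gave 1.57 with doublets kept, 0.77 with clusters, 0.84 thinned and 0.71 against anti-PD1. Combination gave 0.38 (clusters) and 0.76 (against anti-PD1), the IL15 superagonist 0.19 and 0.68, and anti-PD1 0.32 (clusters). Fusion over combination gave 0.028 with doublets kept, 0.39 with clusters, -0.43 thinned and -0.16 without Klra5. The strict gate leaves the double-negative class as it is.

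Single members whose own interval leaves out equal levels turned round in 15 cases. Members whose interval holds equal levels are not counted, such as Klra5 in NK-gated cells, fusion over combination (0.25, and -0.45 thinned). With the strict gate these were Klra4 in NK-gated cells of the IL15 superagonist (-0.064), and in CD8 T-gated cells Klra1 in anti-PD1 (-0.030) and Klra8 in combination (-0.39) and the IL15 superagonist (-1.03). With clusters they were Klra6 in NK-gated cells, fusion over combination (0.39), Klra9 in CD8 T-gated cells of combination (-0.14) and Klra1 in double-negative T-gated cells of the IL15 superagonist (-0.11). Against anti-PD1 they were, in CD8 T-gated cells, Klra4 in fusion (-0.52) and Klra6 in combination (-0.15), and in double-negative T-gated cells Klra4 (-0.71) and Klra8 (-1.51) in fusion and Klra6 in the IL15 superagonist (-0.25). Thinned, they were Klra8 in CD8 T-gated cells of fusion (0.58), and over combination Klra6 in CD8 T-gated cells (0.27) and Klra7 in double-negative T-gated cells (-0.32). The cause was not tested in any of these cases. No paired analysis was possible because each treatment has 1 library.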
